A study of Mus musculus with 3 samples.

Results

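RAB GTPases are the small GTP-binding proteins that direct vesicle traffic, and the genes described here are the 54 mouse protein-coding genes whose symbol is Rab followed by a number from 1 to 43 and at most 2 further letters or digits, of 22367 protein-coding genes in the annotation. *Rab27a*, *Rab27b* and genes of RAB-interacting proteins were left out by the rule, which used names and no measured value. FLI1 and RUNX1 occupancy was measured by ChIP-seq in mature megakaryocytes (MK), the cells that shed platelets, called MKMat. The cells were grown from fetal livers of wild-type CD1 mice, which the labels place at embryonic day 15, for 5 days in thrombopoietin, the growth factor of the lineage. Cells with erythroid, granulocyte or macrophage surface markers were then depleted, and large cells were collected on an albumin gradient. There was 1 library of FLI1 ChIP, 1 of RUNX1 ChIP and 1 of input, which is chromatin sequenced without precipitation, and each ChIP library pooled the DNA of at least 3 precipitates. No sample was treated or genetically altered, so the comparisons are between antibodies and input in the same cells, and fewer cells with a bound site cannot be told apart from weaker binding in each cell.

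After reads on chromosome M and repeated input reads were left out, 62946422 FLI1, 3973856 RUNX1 and 21745220 input reads remained, so the same promoter was sampled far less densely for RUNX1 than for FLI1. The RUNX1 file analysed here also holds far fewer reads than the study lists for its RUNX1 library, so it may be only part of that library, and every RUNX1 value below is limited by its depth. Values are RPM, the reads per 1000000 reads used in a library, and a ratio compares the RPM of ChIP and input after 0.5 was added to each count. With 1 library of each kind there was no replicate check and no test across genes. Bounds after a ratio are exact 95% binomial intervals that cover counting error only. They may well be too narrow. In all 3 libraries ends on opposite strands paired more often than at a distance of 1 kb. There were 35.6 (FLI1), 24.5 (RUNX1) and 27.8 (input) excess minus-strand ends per 100 plus-strand ends away from FLI1 sites. Reads may therefore not all be separate fragments, and the cause of this pairing was not tested. Promoters of 6 of 11 MK marker genes had a FLI1/input ratio of at least 2, beside 24.1% of all genes. They were led by *Itga2b*, the platelet integrin αIIb, at 5.45, and *Pf4*, a platelet granule chemokine, at 4.21. The other MK markers ran from *Selp* at 1.05 to *Gp1bb* at 1.58. A ratio of at least 2 was reached by 0 of 5 hepatocyte, 0 of 5 erythroid, 0 of 4 lymphoid and 1 of 5 granulocyte and macrophage markers, the last being *Mpo* at 2.42.

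Each RAB protein cycles between a GDP-bound form held in the cytosol and a GTP-bound form on a particular membrane, where it recruits the effectors that move, tether and fuse vesicles. MK rely on this traffic to fill platelet granules and to extend the internal membranes from which proplatelets are made. FLI1 belongs to the ETS family, whose members recognise sites with a GGAA core, and RUNX1 recognises a short TGTGGT-like site.

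Sequences under the leading FLI1 summits are given first. Summit here means the point of a called peak with most FLI1 fragments. The stretches are from mm9, read in the direction of the gene, and reach 50 bases to each side of the summit, except that annotated exons were cut off and that 30 bases are given where the ETS site touches an exon. Capitals mark the ETS words searched on both strands, CCGGAAA or CCGGAAG, together with CAGGAAA or else CAGGAAG. The first set holds the 10 strongest promoter summits of RAB genes except that of *Rab7*, which lies in an exon. Of the 10, 4 held a word and 6, *Rab7* included, held none. The promoter windows of *Rab24*, *Rab13* and *Rab6* also hold the start of another gene.
*Rab11a*, promoter summit, chr9:64585566-64585638, minus strand: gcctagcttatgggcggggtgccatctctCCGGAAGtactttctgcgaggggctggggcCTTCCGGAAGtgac
*Rab11a*, intron summit, chr9:64584478-64584578, minus strand: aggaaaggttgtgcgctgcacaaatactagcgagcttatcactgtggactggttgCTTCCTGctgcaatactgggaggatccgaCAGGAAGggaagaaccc
*Rab24*, promoter summit, chr13:55423342-55423415, minus strand: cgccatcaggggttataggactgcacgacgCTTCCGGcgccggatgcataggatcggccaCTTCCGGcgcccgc
*Rab13*, promoter summit, chr3:90017600-90017629, plus strand: ctgatatgggaCAGGAAGtgacgagccgtg
*Rab5a*, promoter summit, chr17:53618489-53618558, plus strand: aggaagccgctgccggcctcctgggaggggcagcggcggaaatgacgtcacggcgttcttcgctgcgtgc
*Rab6*, promoter summit, chr7:107755848-107755923, plus strand: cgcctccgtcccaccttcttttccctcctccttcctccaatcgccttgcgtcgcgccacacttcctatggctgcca
*Rab21*, promoter summit, chr10:114753009-114753109, minus strand: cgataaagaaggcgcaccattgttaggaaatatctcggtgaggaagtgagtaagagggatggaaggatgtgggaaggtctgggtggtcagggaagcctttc
*Rab19*, promoter summit, chr6:39329400-39329500, plus strand: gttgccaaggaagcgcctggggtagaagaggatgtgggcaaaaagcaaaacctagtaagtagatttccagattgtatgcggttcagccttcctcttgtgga
*Rab1*, promoter summit, chr11:20101035-20101135, plus strand: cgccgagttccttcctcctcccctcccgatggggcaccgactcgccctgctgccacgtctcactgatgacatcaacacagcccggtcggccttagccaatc
At the *Rab11a* promoter, 3 words lay within 50 bases of the summit, and 2 of them overlapped head to head. None of the 4 words was found in the last 5 stretches, where the GGAA core alone or its reverse complement occurred 2 (*Rab5a*, *Rab1*), 3 (*Rab6*, *Rab19*) and 5 times (*Rab21*). A short core is frequent by itself, and a missing word says nothing of FLI1.

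The second set shows 4 of the strongest summits outside RAB promoters, at most 1 per gene. Distal here means away from the TSS of the named RAB gene only. The *Rab10* summit lay within 2 kb of the start of another gene, as given below. The summit of 262 reads near *Rab3a*, which held 3 words, was left out.
*Rab1*, distal summit, chr11:20131282-20131382, plus strand: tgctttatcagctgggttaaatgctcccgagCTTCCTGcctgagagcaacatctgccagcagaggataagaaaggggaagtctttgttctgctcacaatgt
*Rab8b*, intron summit, chr9:66763370-66763470, minus strand: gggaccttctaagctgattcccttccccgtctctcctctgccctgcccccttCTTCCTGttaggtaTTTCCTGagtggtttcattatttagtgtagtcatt
*Rab10*, distal summit, chr12:3235345-3235445, minus strand: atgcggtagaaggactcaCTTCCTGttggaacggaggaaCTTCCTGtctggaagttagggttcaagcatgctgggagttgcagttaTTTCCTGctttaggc
*Rab38*, distal summit, chr7:95572582-95572682, plus strand: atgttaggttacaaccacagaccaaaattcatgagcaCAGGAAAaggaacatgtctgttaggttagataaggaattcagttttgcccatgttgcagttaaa
Each held at least 1 word, and *Rab10* held 3. They do not stand for all such summits, since those of 169 reads near *Rab4b*, 142 near *Rab43* and 124 near *Rab3d* held none.

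FLI1 reads were concentrated at the promoters of many RAB genes. In the 4 kb around the transcription start site (TSS, the 5′ end of the gene record, 2 kb to each side), the members ranged from 1.02 to 10.7 FLI1 RPM with a median of 3.95, against a median of 2.11 over all protein-coding genes. RUNX1 ranged from 0.755 to 5.54 RPM (median 2.77, against 2.01), and input from 0.828 to 3.22 RPM (median 1.86, against 1.79). The FLI1/input ratio was at least 2 at 26 of 54 members, where the share over all genes was 24.1%. Its median was 1.95 for the members and 1.23 for all genes. With the RUNX1 library in place of input as the reference, the same ratio was reached by 7 of 54 members (median 1.41), beside 11.1% of all genes (median 1.06). The share of RAB promoters past a ratio of 2 was thus close to that of all genes against the other ChIP library, while their median remained above it. The 7 were *Rab13* at 5.13 (2.23 to 21.3, from 365 FLI1 and only 4 RUNX1 reads, a level that turned from below to above input at another transcript start), *Rab18*, *Rab2b*, *Rab1*, *Rab11a* at 2.43 (1.55 to 4.31), *Rab4a* and *Rab12*. A member had 3 to 22 reads in the RUNX1 library, and whether fragmentation or background of the libraries had a part in this was not tested.

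**Figure D1:**
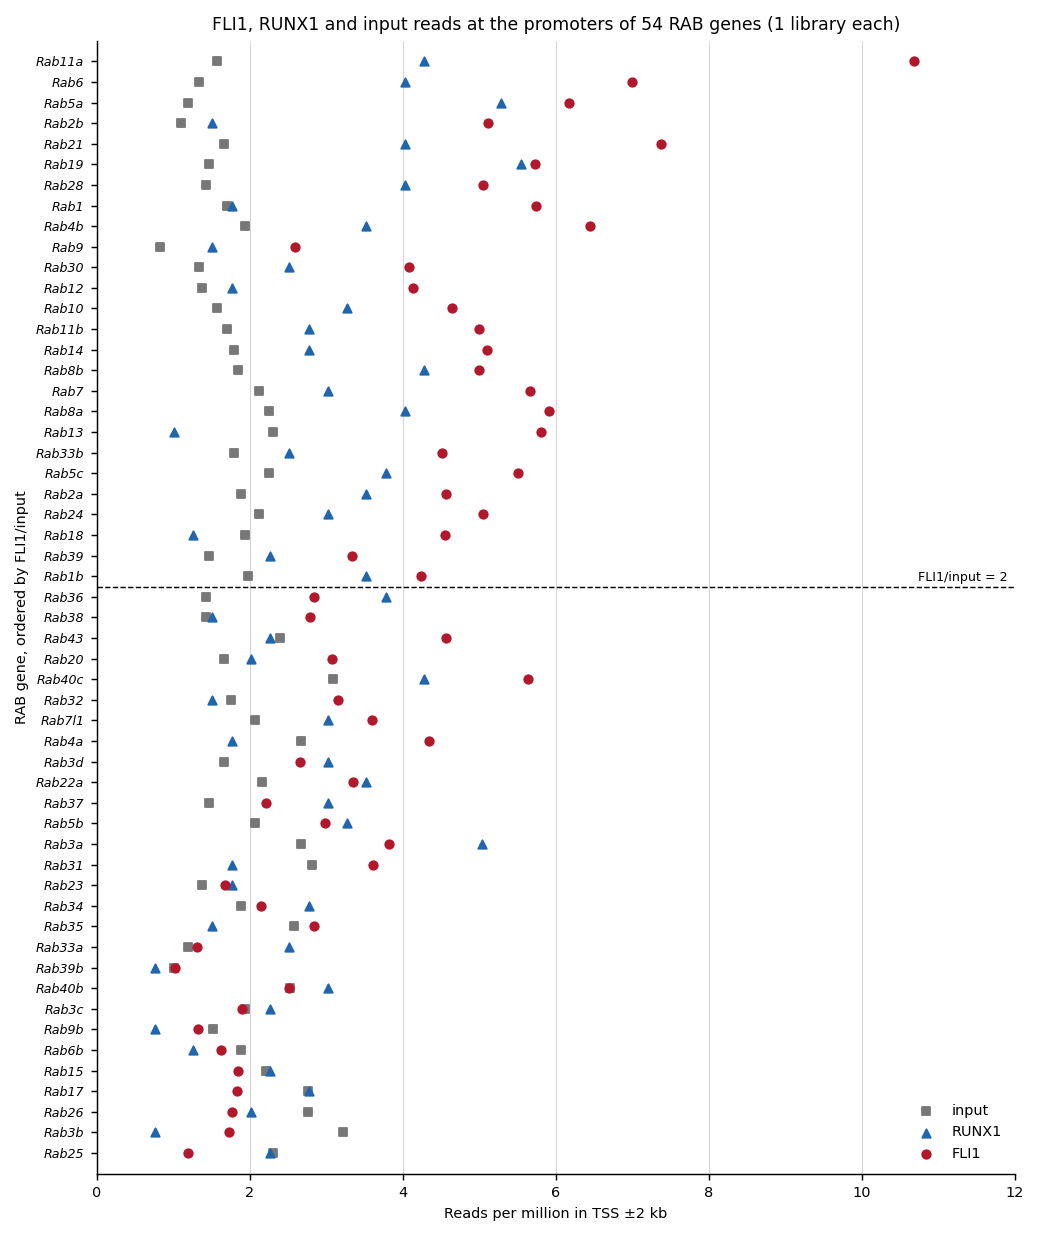
RPM within 2 kb of the TSS for each of the 54 RAB genes (vertical axis, ordered by FLI1/input) in the FLI1, RUNX1 and input libraries (1 each, hence no error bars). FLI1 reached 10.7 RPM at *Rab11a*, and the 26 genes above the dashed line had FLI1/input of at least 2.

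*Rab11a*, which directs recycling endosomes, had the most FLI1 signal of the family. Its promoter window held 10.7 FLI1, 4.28 RUNX1 and 1.56 input RPM (672, 17 and 34 reads), giving FLI1/input of 6.73 (4.84 to 9.94), higher than at 99.7% of genes. Of the other leading members, *Rab6*, a regulator of Golgi traffic, held 6.99, 4.03 and 1.33 RPM in the same order, with a ratio of 5.16 (3.60 to 7.92), but its window also contains the start of *Mrpl48*. *Rab5a*, which drives fusion of early endosomes, held 388, 21 and 26 reads (6.16 FLI1 and 5.28 RUNX1 RPM), and its ratio was 5.06 (3.46 to 7.99). FLI1/RUNX1 was 1.14 (0.752 to 1.91) at *Rab5a* and 2.43 (1.55 to 4.31) at *Rab11a*, and these intervals overlapped. *Rab2b*, a Golgi RAB whose start lies beside that of *Tox4*, held 322, 6 and 24 reads (ratio 4.55, 3.06 to 7.34). *Rab21*, known for endocytosis of integrins, held 7.37, 4.03 and 1.66 RPM (ratio 4.40, 3.17 to 6.44). These were followed by *Rab19* at 3.83, *Rab28* at 3.49 and *Rab1*, the RAB of ER-to-Golgi transport, at 3.33. The intervals of these 8 all overlapped that of *Rab11a*, that of *Rab1* (2.40 to 4.86) by the least. In *Rab19* the signal came from a summit 1724 bp upstream, and with a window of 1 kb to each side its ratio was 1.98, while *Rab6* rose to 9.17 and *Rab21* to 8.53.

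At the other end of the order, 4 of 54 members had lower FLI1 RPM than input RPM beyond counting error, beside 11.3% of all genes. *Rab25*, the epithelial relative of *Rab11a*, held 1.19 FLI1, 2.26 RUNX1 and 2.30 input RPM (ratio 0.516, 0.358 to 0.757). *Rab3b* held 1.73, 0.755 and 3.22 RPM (0.537, 0.395 to 0.737), but its ratio was 0.907 at its transcript start with most FLI1 reads, 11227 bp away. *Rab26* stood at 0.637 and *Rab17* at 0.660, both with upper bounds below 1, and *Rab15* at 0.830 (0.592 to 1.19). *Rab3* proteins serve regulated exocytosis in neurons and endocrine cells, *Rab26* secretory granules, and *Rab17* polarised epithelia. None of these 5 had a FLI1 summit within 2 kb of its TSS. Around the limit of 2, *Rab1b* (2.12) and *Rab39* (2.24) lay just inside, and *Rab36* (1.97) and *Rab38* (1.92) just outside, and the intervals of these 4 genes overlapped. Further below came *Rab43* at 1.89, *Rab20* at 1.83, *Rab7l1* at 1.72 and *Rab22a* at 1.54. *Rab31* (1.28), *Rab23* (1.19) and *Rab34* (1.13) had intervals that included 1, as had *Rab35*.

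The lower bound of FLI1/input was over 1 at 39 of 54 members, beside 40.5% of all genes. RAB promoters are rich in CpG, with a median observed-to-expected CpG of 0.730 in the 1 kb around the TSS, against 0.549 for all genes. Among members with a value of at least 0.6, 22 of 39 reached FLI1/input of 2, against 4474 of 10205 such genes in all, and the medians were 2.33 and 1.84. Among the CpG-poor, 4 of 15 members reached it, against 919 of 12162 genes, with medians of 1.43 and 0.944. The exact 95% interval of the first share, 39.6% to 72.2%, included that of all CpG-rich genes (43.8%). The interval of the CpG-poor members, a smaller set, lay just above the share of their class. That class is not matched to them, as the median CpG value was 0.520 for these members and 0.247 for all CpG-poor genes. No difference between RAB genes and their class was tested. The part of CpG content in the result was not tested beyond this split.

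**Figure D2:**
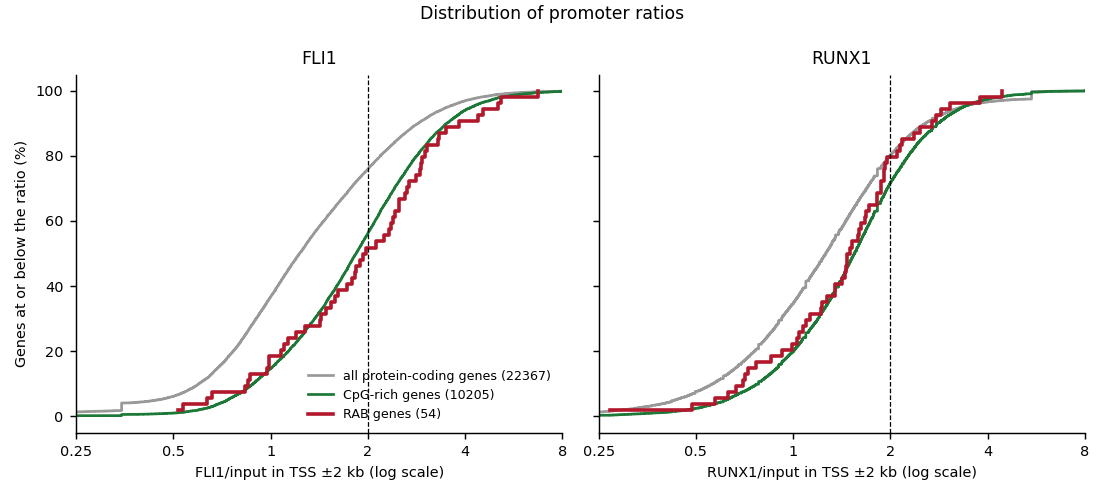
Percentage of genes (vertical axis) at or below a given FLI1/input or RUNX1/input ratio within 2 kb of the TSS (horizontal axis, log scale) for all genes, CpG-rich genes and RAB genes. The FLI1 curve of the RAB genes (median 1.95) lies to the right of all genes (1.23) and runs near that of CpG-rich genes (1.84), and for RUNX1 all 3 curves lie closer together.

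The mean profile gave each library around the TSS at finer scale. Within 100 bp of the TSS, RAB genes had 0.373 FLI1 RPM per 100 bp, 7.11 times the level beyond 4 kb, and the corresponding factor was 6.57 for CpG-rich genes and 4.43 for all genes. RUNX1 rose 2.17-fold at RAB genes, 3.14-fold at CpG-rich genes and 2.31-fold at all genes. Input was 0.919 of its outer level at RAB genes, 15 of which are CpG-poor, 0.859 at all genes and 0.650 at CpG-rich genes. The dip of input at the TSS was thus smaller for RAB genes than for CpG-rich genes, but near that of all genes. Against CpG-rich genes, the higher FLI1 factor of RAB genes therefore does not carry over to FLI1/input at the TSS itself. There, input was 0.0481 RPM per 100 bp at RAB genes and 0.0329 at CpG-rich genes, with 0.373 and 0.319 for FLI1.

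**Figure D3:**
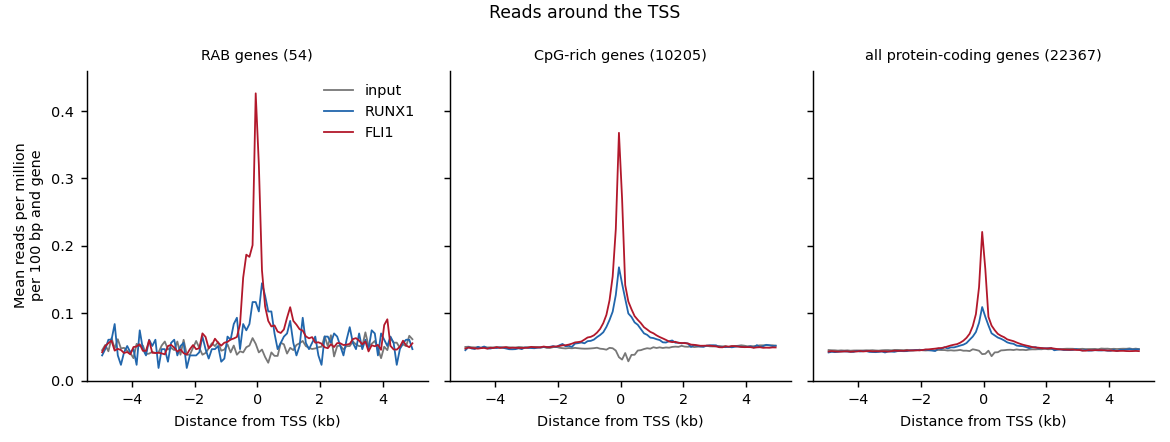
Mean RPM per 100 bp and gene (vertical axis) against distance from the TSS in kb (horizontal axis) for RAB genes, CpG-rich genes and all genes. FLI1 peaked in the bin just upstream of the TSS at 0.426, 0.368 and 0.221 RPM, respectively, and the RUNX1 line of the 54 RAB genes is ragged because it rests on few reads.

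Read by the membranes the proteins serve, high FLI1 ratios were spread over most of the secretory and endocytic routes. The counts that follow stand beside 24.1% of all genes and 43.8% of CpG-rich genes. In ER and Golgi transport 10 of 16 members reached a ratio of 2 (median 2.28), from *Rab6* and *Rab2b* down to *Rab6b* at 0.853. All 5 members listed under transport to the plasma membrane did so, within a narrow range from *Rab13* (2.50, window shared with *Rps27*) to *Rab12* (2.95). Each gene was listed in 1 group only, and the placing of *Rab12* in this group is open. Among the RABs of recycling endosomes 4 of 8 did (*Rab11a*, *Rab4b* at 3.30, *Rab11b* at 2.90 and *Rab14* at 2.81), whereas *Rab25* was lowest. In the early endosome group it was 3 of 8, namely *Rab5a*, *Rab21* and *Rab5c* (2.42). In the late endosome, lysosome and autophagy group it was 3 of 5, with *Rab9* at 3.05, *Rab7*, the RAB of lysosome fusion, at 2.65 and *Rab24* at 2.37. The *Rab9* ratio rests on 18 input reads, the fewest at any member, and its 2.59 FLI1 RPM lay below the members' median of 3.95. The *Rab24* window also holds the start of *Prelid1*. The 6 RABs of regulated secretion were at 0.537 to 1.59 at the record start and 0 of 6 reached 2. At the transcript start with most FLI1 reads, *Rab37* was at 1.91 and *Rab3b* at 0.907. *Rab32* (1.78) and *Rab38* (1.92), which act in lysosome-related organelles such as melanosomes and platelet dense granules, stayed just below it, although both had a FLI1 summit within 30 bp of the TSS, at 21 and 29 bp. Of the 4 remaining members *Rab28* alone reached 2. The groups hold few genes and were not tested against each other.

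Ratios of paralogues within a family were set side by side. In 8 of 12 families with more than 1 member, the intervals of the highest and the lowest member did not overlap. These members were picked by their values, and the share among other pairs of genes was not computed. The count thus does not show that paralogues differ more than other genes do. *Rab6* (5.16) and *Rab6b* (0.853), the latter mainly a neuronal gene, were 6.05-fold apart. *Rab9* (3.05, from 163 FLI1 and 18 input reads) and *Rab9b* (0.861, from 83 and 33) were 3.55-fold apart. This gap came from fewer input reads at *Rab9* as well as from more FLI1 reads. *Rab5a* and *Rab5b* (1.43) were 3.54-fold apart, with *Rab5c* between them. In the *Rab3* family, *Rab3d* was at 1.59, *Rab3a* at 1.42, *Rab3c* at 0.971 and *Rab3b* at 0.537, and the first and the last were apart. This holds for the record start, as *Rab3b* was at 0.907 at its transcript start with most FLI1 reads. *Rab11a* exceeded *Rab11b* 2.32-fold, *Rab33b* (2.49) exceeded *Rab33a* (1.08) 2.31-fold, and *Rab4b* exceeded *Rab4a* (1.62) 2.05-fold. *Rab40c* (1.82) and *Rab40b* (0.987) were also apart. In 4 families the intervals overlapped, which does not show that the members were alike: *Rab39* and *Rab39b* (0.990), *Rab2b* and *Rab2a* (2.39), *Rab1* and *Rab1b*, and *Rab8b* (2.68) and *Rab8a* (2.60), which were nearly equal. The member with the higher ratio also had the higher CpG value in 10 of 12 families.

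**Figure D4:**
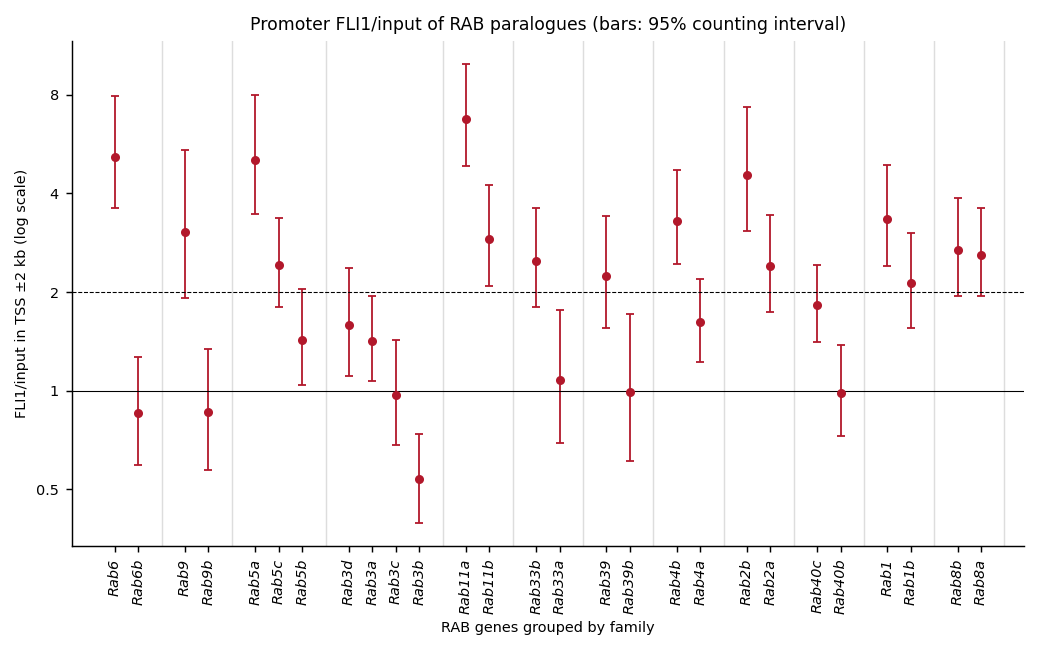
FLI1/input within 2 kb of the TSS (vertical axis, log scale) for RAB genes with paralogues, grouped by family in the order of the ratio between their highest and lowest member, with 95% counting intervals as bars. *Rab6* stands 6.05-fold above *Rab6b* at the left, and *Rab8b* and *Rab8a* coincide at the right.

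**Figure D5:**
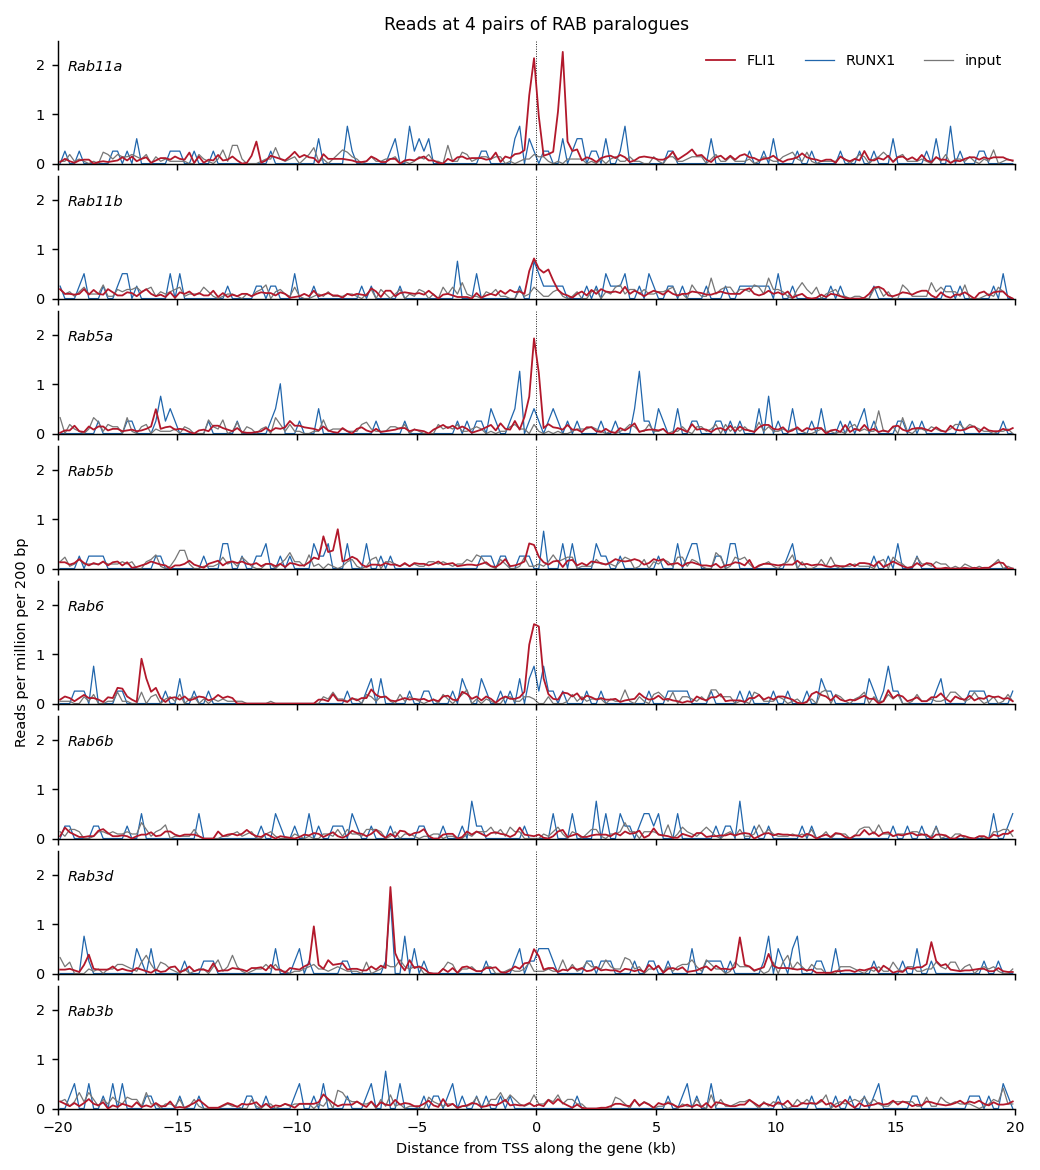
RPM per 200 bp (vertical axis) against distance from the TSS along the gene in kb (horizontal axis) at 4 pairs of RAB paralogues for FLI1, RUNX1 and input. *Rab11a* shows 2 separate FLI1 peaks near the TSS, up to 2.26 RPM, *Rab6b* and *Rab3b* show no peak at the TSS, and *Rab3d* has its main peak about 6 kb upstream.

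Called FLI1 sites told which promoters carry a sharp peak. Of 41909 FLI1 summits in the genome, at least 1 lay within 2 kb of the TSS at 40 of 54 members, beside 44.0% of all genes (and 7381 of 10205 CpG-rich genes). This included all 26 members with FLI1/input of at least 2 and 14 of the others. The nearest summit was at a median of 193 bp from the TSS, against 5506 bp for all genes and 210 bp for CpG-rich genes. With FLI1 thinned to the RUNX1 depth, 15 members had a promoter summit, beside 13.2% of all genes. The 14 members without one were *Rab37*, *Rab23*, *Rab34*, *Rab33a*, *Rab39b*, *Rab40b*, *Rab3c*, *Rab9b*, *Rab6b*, *Rab15*, *Rab17*, *Rab26*, *Rab3b* and *Rab25*. Those with more than 1 were 9, among them *Rab2a* with 4 and *Rab11a* with 2.

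In the wider region, the gene record with 20 kb to each side, 50 of 54 members held a summit, beside 71.0% of all genes. The exceptions were *Rab39b*, *Rab9b*, *Rab6b* and *Rab3b*. The regions held 193 summits, of which 100 were in introns, 68 between genes, 20 in UTRs and 5 in coding exons, and *Rab37* had the most with 12. In 87 of the 193, the nearest protein-coding TSS was that of another gene, so presence in the region does not assign a site to the RAB gene. The strongest was 29897 bp downstream of the *Rab1* TSS, in an intron of *Cep68*, with 295 FLI1 reads against 1 input read at depths of 62946422 and 21745220. The next, with 262 reads, was 22645 bp downstream of *Rab3a* and 611 bp from the TSS of *Pik3r2*. A summit of 230 reads stood 412 bp upstream of *Rab21*, with 5 input reads in the 252 bp around it. One of 223 reads, 74574 bp downstream of *Rab10*, was 1216 bp from the start of *1700012B15Rik*. In its own first kilobases *Rab8b* had an intron summit at 4092 bp (213 reads), and *Rab11a* one at 1037 bp (183 reads) beside its promoter summit at 23 bp upstream (148 reads). *Rab13* (202 reads, 20 bp upstream) and *Rab7* (180 reads, 15 bp downstream, in the UTR) had single sharp summits at the starts of their records. The *Rab13* window also holds the start of *Rps27*. The study's list places the nearest FLI1 site more than 2 kb from the *Rab13* TSS it used. The *Rab43* region contained a summit of 142 reads that lay 72 bp from the TSS of *Gp9*, a platelet glycoprotein gene.

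Pooled over positions, ETS words occurred at about the same share of RAB sites as of all FLI1 sites, but not away from promoters. The pooled sets differ in make-up, with 103 of 193 RAB summits at promoters of any gene against 12486 of 41909 in all. The RAB regions were drawn around genes, so this difference was built into their choice. Within 50 bp of the summit, 107 of 193 RAB summits held at least 1 word, which is 55.4% (exact 95% interval 48.1% to 62.6%), against 53.0% of all FLI1 summits. In windows 500 bp away the shares were 10.4% and 7.68%. At summits within 2 kb of any promoter the share was 42.7% for RAB genes and 46.4% in all. At the other 90 RAB summits it was 70.0% (59.4% to 79.2%), against 55.8% in all. These 90 were also the stronger set, with a median of 50 FLI1 reads against 42 and a pooled FLI1/input of 7.42 against 5.71. The sets were not matched for strength, and its part in the share was not tested. Among the 40 members with a promoter summit, the strongest one held a word in 18. The RUNX words TGTGGT and TGCGGT, searched on both strands and able to share end letters with an ETS word, occurred at 18.1% of RAB summits and 18.4% of all, against 8.55% and 8.33% in the flanks.

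At the depth of this file, few RUNX1 sites were called near RAB genes. The RUNX1/input ratio within 2 kb of the TSS was at least 2 at 11 of 54 members, beside 19.7% of all genes, and the medians were 1.49 and 1.26. Among CpG-rich promoters it was 7 of 39 members (17.9%, median 1.47) against 28.2% of all such genes (median 1.55), and among CpG-poor ones 4 of 15 (26.7%) against 12.6%. As given above, the CpG-poor members had a higher median CpG value than their class. With 3 to 22 RUNX1 reads per promoter, the lower bound exceeded 1 at 10 of 54 (14.5% of all genes). These were *Rab11a*, *Rab6*, *Rab5a*, *Rab21*, *Rab19*, *Rab28*, *Rab10*, *Rab8b*, *Rab36* and *Rab3a*, with the highest ratio at *Rab5a* (21 RUNX1 and 26 input reads, 4.44, 2.36 to 8.17) and then *Rab19* (22 and 32 reads, 3.79, 2.08 to 6.68). The upper bound was below 1 only at *Rab3b* (1 of 54, beside 2.66% of all genes). Of the 11 members at 2 or above, 8 also reached FLI1/input of 2, and the others were *Rab36*, *Rab37* and *Rab33a*. Both ratios share the input library and are given side by side only. The share of all genes that reached 2 in both was not computed, so the overlap cannot be read as particular to RAB genes. *Rab13*, with 4 RUNX1 and 365 FLI1 reads, had a RUNX1/input of 0.488 (0.115 to 1.19), which became 1.97 at the transcript start with most RUNX1 reads.

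The file was too shallow for a missing summit to mean a missing site. None of the 1028 RUNX1 summits called from it lay within 2 kb of a RAB TSS (0 of 54, beside 1.86% of all genes), and 1 member had one in its wider region (1 of 54, beside 5.69%). That member was *Rab3a*, with summits of 9 and 8 RUNX1 reads at 70 and 577 bp from the TSS of *Pik3r2*. The second was 34 bp from a FLI1 summit. Counts were too low at single sites for a statement about RUNX1, but in the 252 bp around the 193 RAB FLI1 summits together there were 269 RUNX1 and 555 input reads, a ratio of 2.65 (2.28 to 3.07), against 2.35 at all FLI1 summits. Split by position, it was 3.10 against 3.47 at the 103 promoter summits and 2.20 against 1.98 at the other 90, so the order was not the same in both, and promoter summits were more frequent among RAB summits than among all (12486 of 41909). FLI1/input over the same windows was 8.37, and FLI1/RUNX1 was 3.16 (2.80 to 3.58). The sites were chosen by FLI1 reads over local input, so the FLI1 values there are descriptions. The RUNX1/input ratios there use the same input library that entered the choice. The most RUNX1 reads at a FLI1 summit were 7, at the *Pik3r2* site, and 6 at 4 others, including one 6082 bp upstream of *Rab3d* (124 FLI1, 6 RUNX1 and 5 input reads).

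Over whole genes the ratios to input were small, for FLI1 as for RUNX1. In the gene record with 20 kb to each side, FLI1/input was 0.732 to 1.41 with a median of 1.03 (0.972 for all genes), and 0 of 54 members reached 1.5, beside 2.00% of all genes. Its lower bound was over 1 at 22 of 54 members, beside 28.5% of all genes, and its upper bound under 1 at 12 of 54, beside 37.7%. RUNX1/input was 0.718 to 1.34 with a median of 0.956 (0.946), and 0 of 54 reached 1.5, beside 3.54%. The highest in both was *Rab38*, at 1.41 (1.31 to 1.52) for FLI1 and 1.34 (1.14 to 1.56) for RUNX1. *Rab11a* was at 1.36 and *Rab1* at 1.36 for FLI1, and *Rab6b* was lowest at 0.732 (0.685 to 0.783). The lower bound for RUNX1 was over 1 at 7 of 54 members (*Rab5a*, *Rab14*, *Rab8b*, *Rab2a*, *Rab38*, *Rab34* and *Rab9b*), beside 11.5% of all genes, and its upper bound was under 1 at 12 of 54, beside 24.9%.

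The study lists 6 of the RAB genes among transcripts that are higher in MKMat than in immature MK, a list the study drew from its own expression data on such cells, so that it is not independent of the culture. At these, 4 of 6 had FLI1/input of at least 2 (24.1% of all genes) and 5 of 6 a promoter summit (44.0%). Their median ratio was 2.71 against 1.86 for the other 48 members, of which 22 reached 2. The median FLI1 was 4.36 RPM against 3.71, and the median input 1.45 RPM against 1.89. Lower input thus had a part in the gap between the ratios. The 4 were *Rab2b* at 4.55, *Rab30*, a Golgi RAB, at 3.02 (2.08 to 4.66), *Rab10* at 2.93 (2.08 to 4.37) and *Rab13* at 2.50 (1.87 to 3.46). The windows of *Rab2b* and *Rab13* also hold the starts of *Tox4* and *Rps27*, so their reads cannot be assigned to the RAB gene alone. The study's list places the nearest FLI1 site more than 2 kb from the *Rab13* TSS it used, so counting *Rab13* here rests on the record start. With the RUNX1 library as reference 2 of 6 were at 2 or above, *Rab13* and *Rab2b*, both with shared windows, beside 11.1% of all genes. *Rab38* had a weak promoter summit of 40 reads and a strong one of 175 reads 6151 bp upstream. *Rab37*, known from secretory granules of mast cells, had 2.21 FLI1, 3.02 RUNX1 and 1.47 input RPM at the start of its record, which is 19245 bp from the nearest summit. Inside its record, summits of 37, 108 and 145 reads lay 364, 1117 and 3944 bp from other *Rab37* transcript starts. FLI1/input of *Rab37* was 1.48 at the record start and 1.91 at its transcript start with most FLI1 reads, 62726 bp away (278 FLI1 and 50 input reads). With 6 genes the difference between these and the other members was not tested.

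The proteins that load, switch and use RABs were compared as a list of 118 gene records. Of these, 46 had FLI1/input of at least 2 (39.0%, beside 24.1% of all genes) and 83 a promoter summit (70.3%, beside 44.0%), with a median ratio of 1.69 (1.23 for all genes). Their promoters had a median CpG value of 0.735, and among all CpG-rich genes the shares were 43.8% and 72.3% and the median 1.84. Prenylation and GDI genes, which attach RABs to membranes and retrieve them, reached 2 in 5 of 8, led by *Chm*, the Rab escort protein, at 3.36 and *Gdi2* at 3.27. Exchange factors, which activate RABs, did so in 11 of 29. Among them *Rabgef1*, the exchange factor of Rab5, was highest of the whole list at 6.36 (579 FLI1, 27 RUNX1 and 31 input reads), followed by *Madd* at 3.71. GTPase-activating proteins, which switch RABs off, did so in 17 of 37, with *Tbc1d5* at 3.54 and *Tbc1d15* at 3.47. Effectors did so in 13 of 44 gene records, of which *Sytl3* had 0 reads in all 3 libraries and so no usable ratio, with *Ehbp1l1* at 4.44 and *Unc13d*, which primes granules for release, at 3.34. *Mlph*, a melanosome effector of Rab27a, was at 0.491. With the RUNX1 library as reference, 18 of the 118 records reached 2, beside 11.1% of all genes.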

How the data were processed

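FLI1 and RUNX1 ChIP and input libraries of MKMat were used, 1 each. Per the methods the authors aligned reads to mm9 with Bowtie and kept unique, non-redundant reads. The submitters' processing notes also name SICER 1.1 and MACS 1.4. The deposited BED files hold the position and strand of each read and no signal (unit: read positions). Every count is of these positions. The input file kept repeated positions (3.24%), which were dropped. ChIP reads are 50 bp and input reads 34 bp long. The methods describe an input digested with micrococcal nuclease and the labels sonication only. The part of fragmentation in the ChIP/input ratios was not tested. The methods and the labels also differ on the embryonic day.

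Reads were moved by 0.5 of the fragment length (126, 159 and 159 bp for FLI1, RUNX1 and input), the distance from 80 to 400 bp at which most opposite ends pair. Gene models were GENCODE M1 on mm9. Counts were scaled to library depth, 0.5 was added, and a ratio of 2 (promoters) or 1.5 (gene records with flanks) counted as called. Peaks followed the scheme of MACS 1.4: a Poisson p under 1e-05 in 2 fragment lengths at the summit, where the expected number was whichever was largest of the mean over the genome and the local input within 1, 5 or 10 kb. ETS and RUNX words were searched within 50 bp of summits in the NCBIM37 (mm9) sequence. Counts and peaks were tested on simulated data. Python 3.11.15, numpy 2.4.6, scipy 1.17.1 and pysam 0.24.0 were used.

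The members and gene lists were chosen with earlier results of these data known. Genes named with values are the 8 members highest and 5 lowest in promoter FLI1/input, the 2 nearest to a ratio of 2 on each side, those with a RUNX1 summit, the 6 MKMat genes, members of families and those with the 8 strongest summits. Others, such as those named by role or among the machinery, were chosen after their values were seen. No NF-E2, H3K4me2 or expression data were analysed here. Alternatives covered windows, starts, shifts, scaling, thresholds, added counts, the reference library, depth and peak settings.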

Additional observations from a re-analysis of the deposited data

How the results depend on the processing

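Of 127 values of the results under alternatives, 98 stayed within the limits of a change (1.5 times for a count), and of 972 values of single members 899 did so. One turned: RUNX1/input of *Rab13* was 1.97 at its transcript start with most RUNX1 reads. With the RUNX1 library as reference, FLI1 reached 2 at 7 members (median 1.41), at 2 MKMat genes and at 18 machinery records, and 11.1% of all genes did. At a ratio of 3 the numbers were 11, 2 and 18 (8.75% of all genes). A window of 1 kb gave a FLI1 median of 2.65 (1.37 for all genes). For RUNX1, with all genes in brackets, 1 kb gave 26 members (33.8%) and a median of 1.94 (1.49), a ratio of 1.5 gave 27 (37.9%), a ratio of 3 gave 3 (6.59%), and 5 added to each count gave 23 (36.6%) and a median of 1.89 (1.74). Over gene records, 5 kb flanks gave 4 members (6.4%) for FLI1 and 2 (7.82%) for RUNX1, the lower ratio tried gave 7 and 5 (11.5% and 11.8%), and the FLI1 median without the TSS was 0.983 (0.940). With FLI1 thinned to the RUNX1 depth, 15 members had a promoter summit (13.2%) and 30 one near the gene (31.8%), the median distance was 28245 bp (83829 for all genes) and the ETS share 69.8% (of 43 RAB summits). Depth, which thinning alone changes, thus limits these counts. RUNX1 summits near members numbered 0 at a stricter p (0.478% of all genes) or with 5 kb flanks (3.78%), 4 without input (8.32%), 8 with 50 kb flanks (9.44%) and 53 with RUNX1 scaled up to the input (93.4%), which put summits at 36 promoters (43.6%). The cause of the other changes was not tested. Leaving out the 4 members that share a window with another gene start, a choice made after seeing the data, left 22 of 50 (median 1.86). All 4 were at 2 or above, and the share of all genes was not computed for this choice. No paired analysis was possible because each antibody has 1 library.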
